A study of Homo sapiens with 8 samples.

Results

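EYA4, TENM4, RYR2, CADPS and GLI3 are 5 long genes of development, neurons or heart muscle that hold, or lie near, stretches where the repressive histone mark H3K27me3 was listed in both DMSO-treated libraries and was thin or missing in both AC220-treated ones. They were chosen by the measured coverage of 5 kb windows in these same 4 libraries, so every difference between the treatments at these genes is a description and carries no test. All 5 genes could be placed, each with 50 kb on either side, except that the upstream flank of GLI3 was taken out to 423 kb because the windows that chose it lie there. Together the 5 genes and their flanks hold 699 of the 607271 steps of 5 kb on chromosomes 1 to 22 and X.

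The cells were MOLM14, an established human acute myeloid leukaemia line with a duplicated stretch in its FLT3 receptor tyrosine kinase gene. They were treated for 24 h with AC220 (quizartinib), an inhibitor of that kinase, or with its solvent DMSO, and H3K27me3 was mapped by chromatin immunoprecipitation and sequencing with Drosophila S2 cells added before lysis. Peak lists of 4 libraries were analysed, 1 for each immunoprecipitated library (AC220 1, AC220 2, DMSO 1 and DMSO 2); the 4 input samples were not analysed here, and the labels do not say whether the libraries of a treatment came from separate cultures. Libraries sharing the number 1 form set 1 and the others set 2, kept apart because the set 2 lists covered 2.59 times (AC220) and 2.55 times (DMSO) the length of the set 1 lists, and each comparison is given within its set. Over the genome, peaks covered 192 Mb in AC220 1 against 232 Mb in DMSO 1 (a difference of -17.2%), and 496 Mb in AC220 2 against 590 Mb in DMSO 2 (-15.9%). The lists hold positions and scores but no read counts, so depth is unknown, the absolute level of the mark is unknown, and fewer cells with the mark and less mark per cell cannot be told apart.

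H3K27me3 is written by the Polycomb complex PRC2, which tends to settle at CpG-rich promoters of silent developmental genes and from there can spread over gene bodies and neighbouring DNA. EYA4 encodes a transcriptional coactivator and phosphatase known from the inner ear and heart. TENM4 encodes a teneurin, a large transmembrane protein of neuronal connections, and RYR2 the calcium release channel of heart muscle. CADPS encodes a protein that primes secretory vesicles in neurons and endocrine cells. GLI3 encodes a zinc finger transcription factor of the Hedgehog pathway, known for limb and brain patterning.

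Promoter sequences are shown because cover by the mark ranged from complete to almost none between these promoters. The sequences are those of RefSeq on GRCh38.p14, 250 bases before to 50 bases after the annotated gene start, and 4 of the 5 genes matched the table; GLI3 did not. Their positions in that build are chr6:133241107-133241406 (plus strand) for EYA4, chr11:79440981-79441280 (minus strand) for TENM4, chr1:237041934-237042233 (plus strand) for RYR2 and chr3:62875367-62875666 (minus strand) for CADPS, and they cannot be set beside the GRCh37 positions used for peaks. Capitals mark each CG dinucleotide, which reads the same on both strands.
EYA4: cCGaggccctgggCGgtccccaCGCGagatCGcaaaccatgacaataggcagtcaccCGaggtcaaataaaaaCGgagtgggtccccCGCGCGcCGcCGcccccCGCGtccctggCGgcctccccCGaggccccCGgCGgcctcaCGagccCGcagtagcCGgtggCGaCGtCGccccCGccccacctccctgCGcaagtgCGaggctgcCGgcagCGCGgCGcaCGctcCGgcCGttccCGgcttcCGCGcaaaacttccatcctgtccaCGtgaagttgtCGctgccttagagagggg
TENM4: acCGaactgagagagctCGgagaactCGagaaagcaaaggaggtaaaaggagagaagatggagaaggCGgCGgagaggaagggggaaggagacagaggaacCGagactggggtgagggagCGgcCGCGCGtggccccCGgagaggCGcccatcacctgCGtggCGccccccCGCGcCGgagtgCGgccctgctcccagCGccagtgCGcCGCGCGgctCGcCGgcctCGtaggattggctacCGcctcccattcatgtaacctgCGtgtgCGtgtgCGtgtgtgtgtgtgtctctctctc
RYR2: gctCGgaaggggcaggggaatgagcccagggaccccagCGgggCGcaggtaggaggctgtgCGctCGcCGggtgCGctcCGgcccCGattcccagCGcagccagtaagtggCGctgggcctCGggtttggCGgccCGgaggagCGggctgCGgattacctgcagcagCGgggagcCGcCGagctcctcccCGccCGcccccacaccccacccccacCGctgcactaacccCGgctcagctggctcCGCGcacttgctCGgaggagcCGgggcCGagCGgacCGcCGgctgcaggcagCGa
CADPS: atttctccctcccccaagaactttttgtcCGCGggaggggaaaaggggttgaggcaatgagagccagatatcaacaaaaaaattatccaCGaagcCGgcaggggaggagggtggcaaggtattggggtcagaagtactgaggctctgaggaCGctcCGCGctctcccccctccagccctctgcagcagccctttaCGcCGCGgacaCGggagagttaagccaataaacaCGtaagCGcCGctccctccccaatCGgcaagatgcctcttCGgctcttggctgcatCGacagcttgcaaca
The EYA4 promoter holds 39 CG dinucleotides, RYR2 32 and TENM4 30, and 8.71%, 18.9% and 22.4% of the 35116 promoters in the table hold as many or more. CADPS holds 17, which 46.0% of promoters reach, near the median of 14. The G and C content is 71.7% for EYA4, 66.3% for TENM4, 75.3% for RYR2 and 57.3% for CADPS, against a median of 58.7%. The CADPS promoter, the poorest in CG of the 4, also had the least cover within 5 kb of its 5' end in every library among these 4. The rest did not follow the order of CG counts. TENM4, with 30, was fully covered in every library. RYR2, with 32, ranged from 13.6% to 56.5%, and EYA4, with 39, from 40.7% to 100%. A relation between CG count and cover was not tested.

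Over the gene spans, the covered share (the percentage of bases inside any deposited peak) was lower with AC220 in both sets for all 5 genes, by very different amounts. EYA4 had 9.82% in AC220 1 and 40.3% in AC220 2, against 23.1% in DMSO 1 and 74.5% in DMSO 2. RYR2 had 1.65% in AC220 1 and 13.0% in AC220 2, against 5.85% in DMSO 1 and 23.8% in DMSO 2. These genes had the largest relative differences, at -57.5% and -45.9% of the DMSO value for EYA4 and -71.9% and -45.3% for RYR2 in sets 1 and 2. CADPS had 7.22% in AC220 1 and 47.3% in AC220 2, against 11.6% in DMSO 1 and 62.7% in DMSO 2. TENM4 had 26.8% in AC220 1 and 59.4% in AC220 2, against 30.6% in DMSO 1 and 67.4% in DMSO 2. GLI3 had 40.8% in AC220 1 and 72.2% in AC220 2, against 41.7% in DMSO 1 and 78.7% in DMSO 2. The relative differences in sets 1 and 2 were -38.0% and -24.5% for CADPS, -12.6% and -11.8% for TENM4 and -2.01% and -8.34% for GLI3. Those of TENM4 and GLI3 were smaller than over the genome as a whole. For every gene the ranges of the treatments overlapped, because AC220 2 lay above DMSO 1 in each.

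As means, EYA4 was covered over 25.04% ± 21.5 with AC220 and 48.8% ± 36.3 with DMSO (SD, n = 2 for each treatment here and below). TENM4 had 43.1% ± 23.1 with AC220 and 49.0% ± 26.0 with DMSO. RYR2 had 7.34% ± 8.06 with AC220 and 14.8% ± 12.7 with DMSO. Both genes had SDs larger than the difference of their means. CADPS had 27.3% ± 28.3 with AC220 and 37.2% ± 36.1 with DMSO. GLI3 had 56.5% ± 22.2 with AC220 and 60.2% ± 26.2 with DMSO. The difference of means was smaller than both SDs in CADPS and GLI3 too, and in EYA4 (-23.8 percentage points) it was larger than the SD with AC220 and smaller than that with DMSO. Ordered by the DMSO mean, GLI3 was the most covered, then TENM4, EYA4, CADPS and RYR2, and the values of neighbours in that order overlapped within 1 SD. The means depend on both sets being complete, since leaving out a library sets a mean over both sets against a single set. Without DMSO 2 the difference of means was positive for all 5 genes, at 1.93 percentage points for EYA4, 12.5 for TENM4, 1.49 for RYR2, 15.6 for CADPS and 14.8 for GLI3. Without AC220 1 it was positive for TENM4 (10.4), CADPS (10.1) and GLI3 (12.0) and negative for EYA4 (-8.53) and RYR2 (-1.80).

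**Figure D1:**
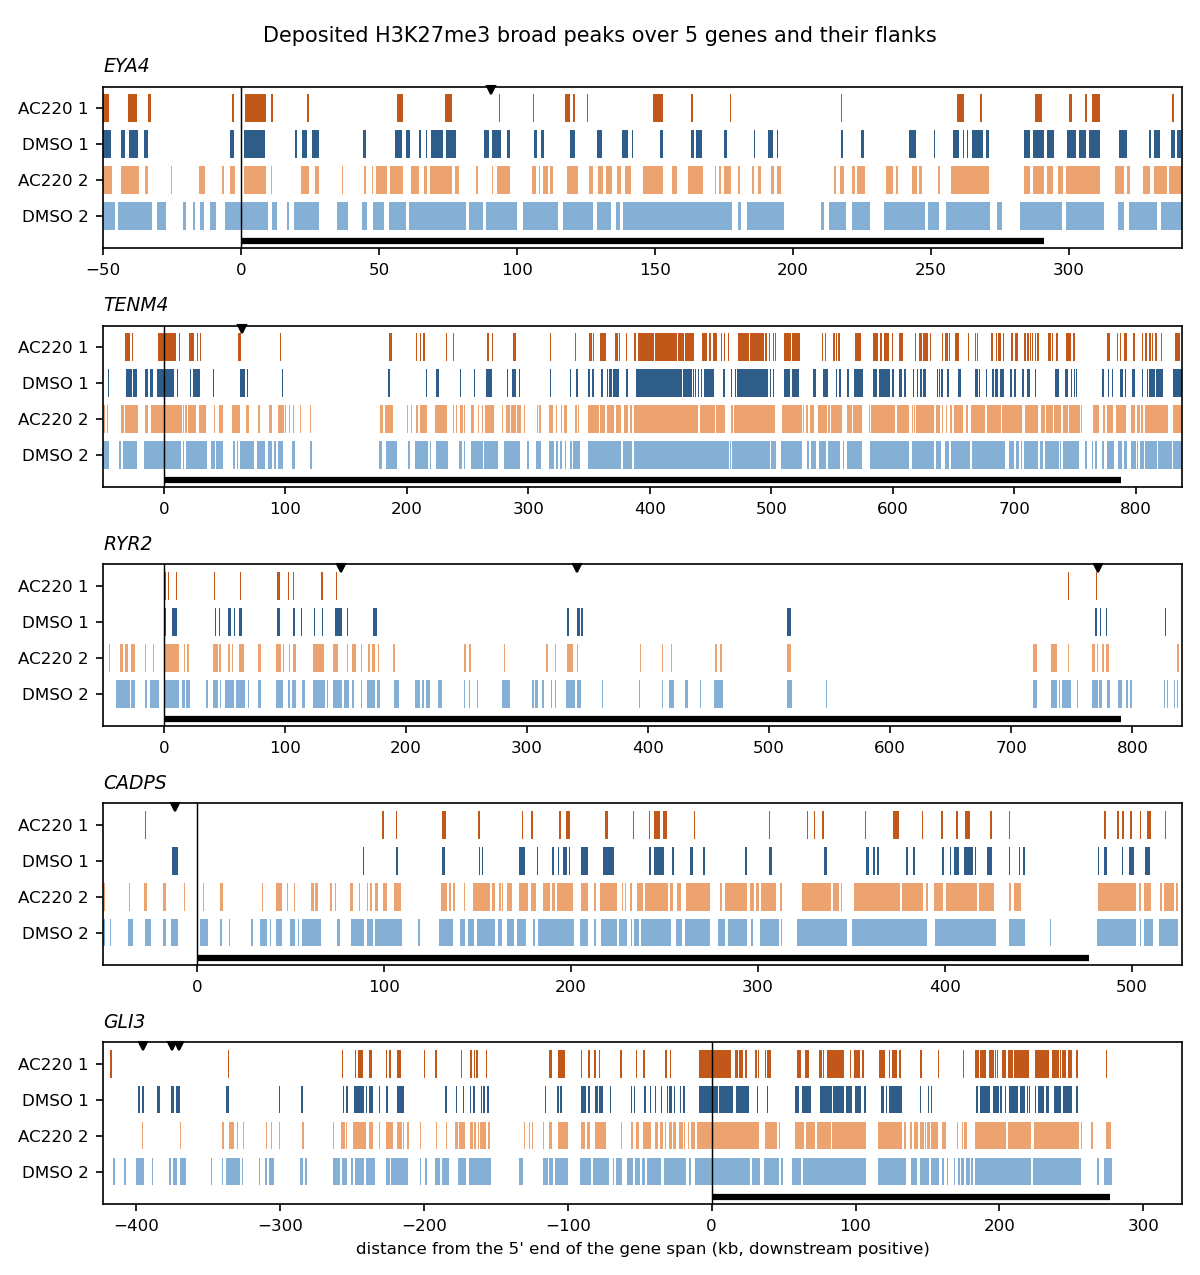
Deposited broad peaks (bars) of each library along each gene and its flanks, with distance from the 5' end of the gene span in kb on the x axis; the black bar is the gene span, and triangles mark the 9 steps of 5 kb with at least 25 percentage points less cover in both AC220 libraries. In EYA4 the peaks are fewer in AC220 1 than in DMSO 1 and narrower in AC220 2 than in DMSO 2, whereas TENM4 and GLI3 hold a peak over the 5' end in all 4 libraries, and the 3 marked steps of GLI3 lie far upstream (positions -370.5 to -395.5 kb).

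EYA4 (band 6q23.2, 133562 to 133853 kb on chromosome 6, plus strand) had lower cover with AC220 in both sets in the promoter, the body and both flanks, though not at every step. The step at 133565 kb, inside the gene, was fully covered in all 4 libraries, and the step at 133710 kb had 71.2% in AC220 1 against 20.6% in DMSO 1. Its body, the span without the 5 kb after the 5' end, was covered over 8.77% in AC220 1 and 39.6% in AC220 2, against 22.1% in DMSO 1 and 74.0% in DMSO 2. The promoter, taken as 5 kb on either side of the 5' end, had 40.7% and 59.4% with AC220, against 52.4% and 100% with DMSO. A peak just inside the gene was kept nearly whole: it ran from 133563505 to 133571123 (7.62 kb) in AC220 1 and from 133563007 to 133571153 (8.15 kb) in AC220 2, against 133563066 to 133570717 (7.65 kb) in DMSO 1. In DMSO 2 it was part of a peak of 15.6 kb that reached 5.77 kb upstream of the 5' end. The promoter difference therefore lay in the stretch around and upstream of the 5' end, which was covered without a break in DMSO 2 alone. DMSO 2 held 15 peaks of at least 10 kb over the gene and flanks, AC220 2 held 3, and the set 1 libraries held none. The widest of them in DMSO 2 (133700451 to 133739780, 39.3 kb) was covered over 11.9% in AC220 1 and 52.7% in AC220 2, against 18.6% in DMSO 1. It was broken into 3 peaks in AC220 1, 7 in AC220 2 and 6 in DMSO 1. That it was whole in DMSO 2 follows from its choice as a DMSO 2 peak. The number of peaks was 25 in AC220 1 and 67 in AC220 2, against 52 in DMSO 1 and 38 in DMSO 2, so the sets differed in direction: fewer peaks in set 1, and more, narrower ones in set 2 (median width 1560 bp in AC220 2, against 5517 bp in DMSO 2).

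TENM4 (band 11q14.1, 78364 to 79152 kb on chromosome 11, minus strand) was fully covered at its promoter in all 4 libraries. The peak over the 5' end was 15.0 kb wide in AC220 1 and 25.5 kb in AC220 2, against 14.2 kb in DMSO 1 and 30.9 kb in DMSO 2. The authors' fold enrichment of that peak over the background of its own list was 3.75 in AC220 1 and 3.44 in AC220 2, against 3.96 in DMSO 1 and 3.43 in DMSO 2, and it was the highest fold over the gene and its flanks in all 4 lists. The flank from 5 to 50 kb upstream, which holds the outer end of that peak, had lower cover, at 15.3% in AC220 1 and 51.2% in AC220 2, against 35.7% in DMSO 1 and 66.5% in DMSO 2. A second domain lay deep in the body. Its widest peak ran from 78730064 to 78747879 (17.8 kb) in AC220 1 and from 78712539 to 78765517 (53.0 kb) in AC220 2, against 78725731 to 78763140 (37.4 kb) in DMSO 1 and 78687257 to 78765143 (77.9 kb) in DMSO 2. The DMSO 2 peak was covered over 72.1% in AC220 1 and 92.1% in AC220 2, against 75.5% in DMSO 1, so the domain was narrower as a single peak while most of its bases stayed covered. The downstream flank differed in set 1 (29.8% in AC220 1, against 50.1% in DMSO 1) and hardly in set 2 (74.9% in AC220 2, against 75.9% in DMSO 2).

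RYR2 (band 1q43, 237206 to 237997 kb on chromosome 1, plus strand) was the least marked gene, with mark at its 5' end and sparse peaks along the body. Its promoter went in opposite directions in the sets: 25.9% in AC220 1 against 13.6% in DMSO 1, and 47.8% in AC220 2 against 56.5% in DMSO 2. The peak that starts just inside the gene was nearly the same in set 2, at 237206219 to 237218269 (12.1 kb) in AC220 2 and 237206189 to 237218583 (12.4 kb) in DMSO 2. Over those 12.4 kb the cover was 26.2% in AC220 1 against 49.3% in DMSO 1, so the higher value in AC220 1 held for the first 5 kb and not for the whole domain. The body was covered over 1.33% in AC220 1 and 12.5% in AC220 2, against 5.71% in DMSO 1 and 23.4% in DMSO 2 (-76.8% and -46.5%). The widest DMSO 1 peak (237347203 to 237352957, 5.75 kb) was covered over 10.4% in AC220 1 and 49.3% in AC220 2, against 100% in DMSO 2. That peak overlaps a step of the kind that chose the gene (237350 to 237355 kb), so its difference follows partly from that choice. AC220 1 held 18 peaks over the gene and flanks and AC220 2 held 62, against 34 in DMSO 1 and 71 in DMSO 2, fewer with AC220 in both sets. No base here was shared by the AC220 lists and absent from both DMSO lists.

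CADPS (band 3p14.2, 62384 to 62861 kb on chromosome 3, minus strand) had a promoter that was almost bare. No peak reached it in AC220 1 or DMSO 1, while 2.78% was covered in AC220 2 and 32.5% in DMSO 2. Mark lay further in: the body had 7.29% in AC220 1 and 47.7% in AC220 2, against 11.8% in DMSO 1 and 62.7% in DMSO 2. Set 1 held no peak of at least 10 kb, and in set 2 there were 8 in AC220 2 and 10 in DMSO 2. The widest DMSO 2 peak (62470529 to 62510713, 40.2 kb) stayed covered over 92.1% in AC220 2, but over 10.6% in AC220 1 and 12.7% in DMSO 1, so its cover differed more between sets than between treatments. The step that chose the gene lies outside it, centred 11.5 kb upstream of the 5' end (62870 to 62875 kb). It was bare in both AC220 libraries and covered over 63.1% in DMSO 1 and 73.7% in DMSO 2. It came from 1 isolated peak in each DMSO list, 62871054 to 62874209 in DMSO 1 and 62871232 to 62874918 in DMSO 2, with a -log10 q (the authors' false discovery value, listed from about 1 upwards) of 1.43 in DMSO 1 and 1.30 in DMSO 2. The whole upstream flank, this step included, had 2.15% in AC220 1 and 9.71% in AC220 2, against 7.01% in DMSO 1 and 28.6% in DMSO 2. In DMSO 1 that peak was the only one in the flank.

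GLI3 (band 7p14.1, 42000 to 42277 kb on chromosome 7, minus strand) had a promoter that was fully covered in AC220 1 and AC220 2 and in DMSO 2, and over 91.2% in DMSO 1. This order turned when only peaks with a q of at most 0.001 were kept: the promoter was then bare in AC220 1 and fully covered in AC220 2, against 91.2% in DMSO 1 and 100% in DMSO 2. The peak over the 5' end was wider with AC220 in both sets, at 22.3 kb in AC220 1 and 43.4 kb in AC220 2, against 12.8 kb in DMSO 1 and 38.3 kb in DMSO 2. As a single peak it also reached further into the gene. In set 1 it reached 13.5 kb in AC220 1, against 4.12 kb in DMSO 1. In set 2 it reached 32.9 kb in AC220 2, against 26.7 kb in DMSO 2. In each DMSO list a gap split off a second piece, which ended 14.9 kb into the gene in DMSO 1 and 33.9 kb in DMSO 2. The marked stretch therefore reached at least as far with DMSO. Of the AC220 1 peak, 93.8% was covered in DMSO 1, and of the AC220 2 peak 97.2% in DMSO 2. The fold of the peak over the 5' end was lower with AC220, each within its own list. It was 3.27 in AC220 1 and 2.98 in AC220 2, against 3.91 in DMSO 1 and 3.68 in DMSO 2. The body was covered over 39.7% in AC220 1 and 71.7% in AC220 2, against 40.9% in DMSO 1 and 78.4% in DMSO 2. The net difference lay mostly upstream: the 418 kb beyond the promoter had 9.93% in AC220 1 and 26.6% in AC220 2, against 15.9% in DMSO 1 and 45.9% in DMSO 2. This upstream stretch has 55.7% of the length examined, and it held 57.4% of the bases covered in DMSO 1 and not in AC220 1 and 77.2% of those covered in DMSO 2 and not in AC220 2. It includes the windows that chose GLI3, so the contrast with the gene follows partly from that choice. In the RefSeq gene order of GRCh38.p14, the next protein-coding gene upstream is C7orf25. The span used for GLI3 is 277 kb, while the RefSeq gene of GRCh38.p14 is 303 kb long, so an annotated start further upstream was not examined. For the other 4 genes the lengths differed by at most 0.805 kb.

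**Figure D2:**
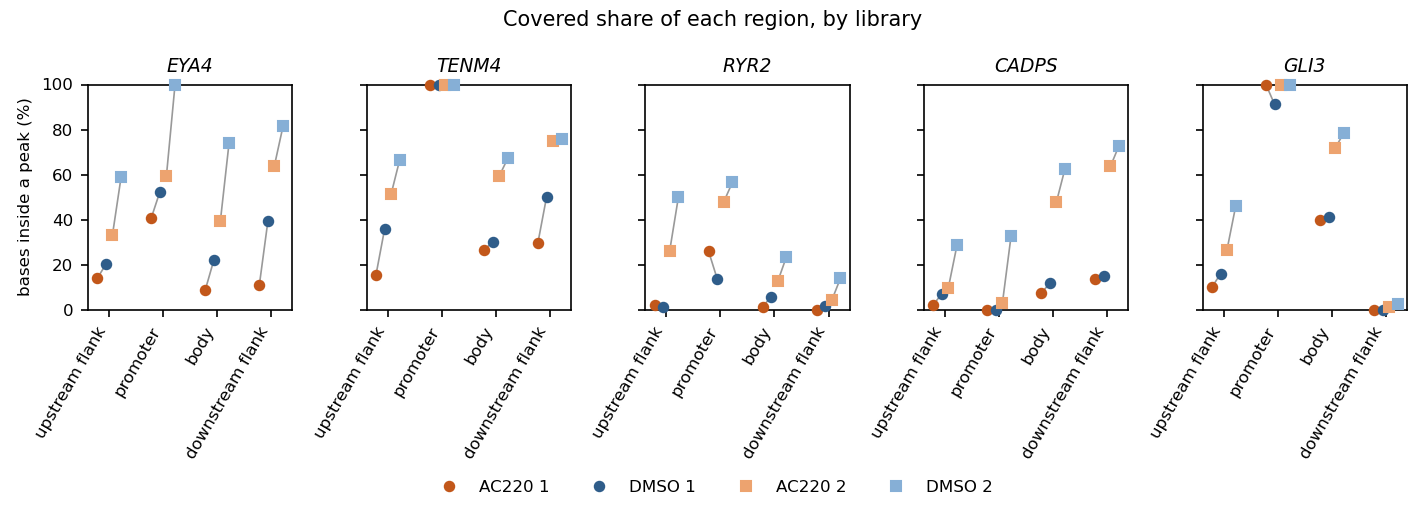
Percentage of bases inside a peak (y axis) in 4 regions of each gene (x axis), with 1 point per library and grey lines joining AC220 to DMSO within a set (circles set 1, squares set 2). The promoters of TENM4 and GLI3 sit at or near 100% in all libraries, the RYR2 promoter lines slope in opposite directions, and every body line has AC220 below DMSO.

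Set beside each other, promoter and body behaved differently between the genes. Body cover was lower with AC220 in both sets for all 5 genes, and promoter cover, within 5 kb of the 5' end, in both sets for EYA4 alone. Over the 5 genes and 5 regions (the whole gene counted as one), 19 of 25 values were lower in both sets. Gene and body share most of their bases, so these values are not separate. When only peaks with a q of at most 0.01 were kept, 13 were lower in both sets, and 3 at 0.001. With each DMSO list trimmed to the length of the AC220 list of its set, 12 were lower in both sets and 2 higher in both. With all lists trimmed to the shortest, 11 were lower and 2 higher. At a q of at most 0.01 the set 1 body difference was positive in TENM4 (0.06 percentage points) and GLI3 (0.19), and at 0.001 in EYA4 (0.12), TENM4 (0.23) and RYR2 (0.25). At 0.001 the set 1 lists were short, at 15.5 Mb in AC220 1 and 17.2 Mb in DMSO 1. The EYA4 body was then bare in DMSO 1 and had 0.12% in AC220 1, so it could not have been lower with AC220. The promoter was unchanged in TENM4, opposite between sets in RYR2, lower in set 2 only in CADPS, and in GLI3 higher in set 1 and equal in set 2. In percentage points the EYA4 promoter and body differed alike (mean difference -26.1 and -23.9). Relative to DMSO the EYA4 body differed more than the promoter, at -60.4% for the body and -22.3% for the promoter in set 1, and -46.5% and -40.6% in set 2. The upstream flank was lower in both sets for EYA4, TENM4, CADPS and GLI3, and in RYR2 in set 2 alone (26.2% in AC220 2, against 49.8% in DMSO 2). The downstream flank was lower in both sets for EYA4, TENM4, RYR2 and CADPS. In GLI3 it was bare in both set 1 libraries and had 0.992% in AC220 2 against 2.55% in DMSO 2. With the promoter taken as 10 kb either side, the RYR2 promoter was lower with AC220 in both sets as well. Its mean difference was then -17.9 percentage points, against 1.80 with 5 kb and 9.01 with 2.5 kb.

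Of the 699 steps of 5 kb, 9 were called lower with AC220, that is, both DMSO shares lay 25 percentage points or more above both AC220 shares, and none was called higher. Over the genome 0.0883% of steps were called lower and 0.0171% higher, but the genes were chosen by such calls, so nothing is read from the count. EYA4 and TENM4 hold 1 called step each and RYR2 3, all inside the gene, while the step of CADPS and the 3 of GLI3 lie in the upstream flank. In EYA4 the step 90.5 kb into the gene (133650 to 133655 kb) was bare in AC220 1 and had 17.0% in AC220 2, against 78.0% in DMSO 1 and 84.3% in DMSO 2. In TENM4 the step 64.5 kb in (79085 to 79090 kb) had 26.4% in AC220 1 and 21.0% in AC220 2, against 89.0% in DMSO 1 and 94.6% in DMSO 2. That every DMSO value lay above every AC220 value in both steps is set by the rule of the call. Neither step is at a promoter.

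In RYR2 the step 146.5 kb in (237350 to 237355 kb) had 0% in AC220 1 and 0.840% in AC220 2, against 59.1% in DMSO 1 and 69.7% in DMSO 2. The other RYR2 steps were centred 341.5 and 771.5 kb from the 5' end, and the one at 771.5 kb had the smallest gap between treatments of the 9, 26.5 points (8.84% in AC220 1 and 34.5% in AC220 2, against 61.0% in DMSO 1 and 74.9% in DMSO 2). The step closest below the threshold also lies in RYR2 (237550 to 237555 kb), next to a called one: it was bare in both AC220 libraries, against 36.3% in DMSO 1 and 19.0% in DMSO 2, a separation of 19.0 points. In GLI3 the called steps at 42645, 42650 and 42670 kb had separations of 35.0, 46.3 and 27.1 points, and AC220 1 was bare in all 3. No peak under them had a -log10 q above 1.89. At 42650 kb, DMSO 1 had a peak of 2.31 kb with a -log10 q of 1.67, and DMSO 2 had peaks of 2.82 and 1.60 kb with 1.54 and 1.13. In the reverse direction the treatments did not overlap in 1 step of TENM4 and 1 of RYR2, at gaps coded -4.5 and -13.1 points (DMSO minus AC220).

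Counted without a threshold, 41 of the 77 EYA4 steps covered in any library had less cover with AC220 in set 1 and set 2 alike, and none had more in both. The counts were 39 of 164 lower and 11 higher in TENM4, 28 of 98 and 1 in RYR2, 22 of 102 and 3 in CADPS, and 34 of 127 and 5 in GLI3. As shares of covered steps, 53.2% were lower in EYA4, 28.6% in RYR2, 26.8% in GLI3, 23.8% in TENM4 and 21.6% in CADPS, beside 19.5% lower and 6.99% higher over all covered steps of the genome. Within GLI3, 7 of 55 covered steps of the gene were lower in both sets (12.7%), against 27 of 72 in its flanks (37.5%). The upstream flank was extended to the windows that chose GLI3, so nothing is read from this contrast. In EYA4 the gene and its flanks were alike, at 31 of 57 (54.4%) and 10 of 20 (50%).

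**Figure D3:**
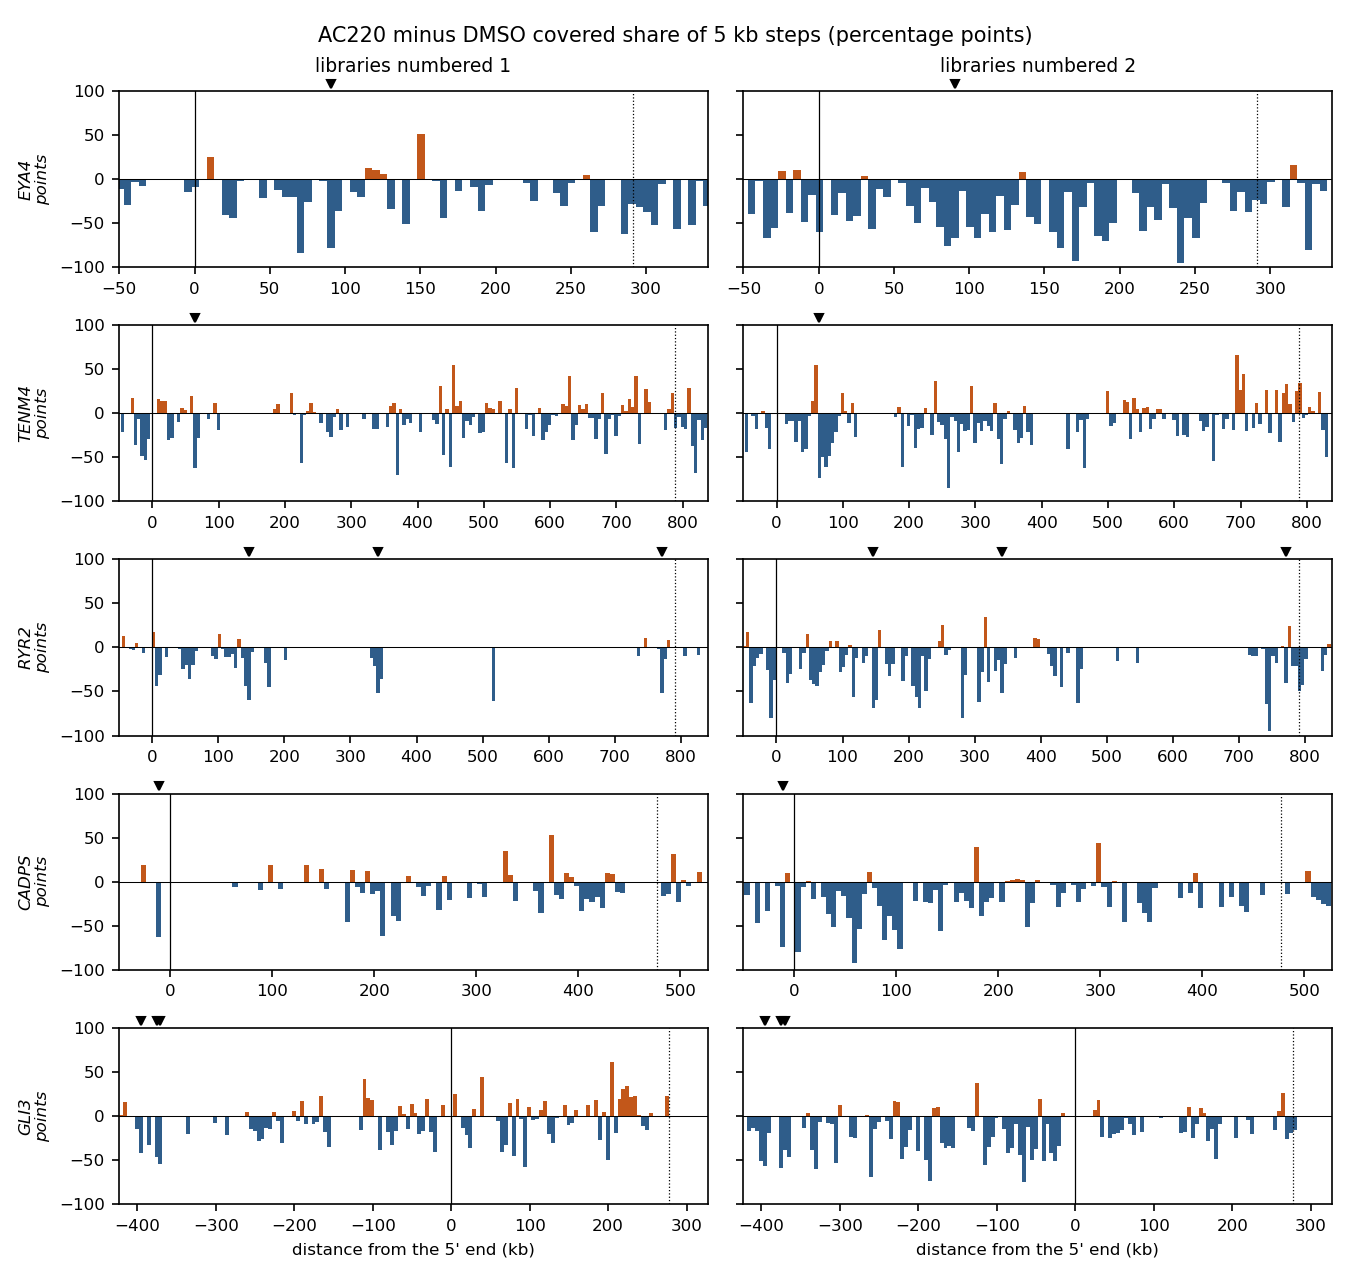
AC220 minus DMSO difference in covered share of each 5 kb step (y axis, percentage points) by distance from the 5' end (x axis, kb), set 1 left and set 2 right; blue bars are lower with AC220, orange bars higher, the dotted line is the 3' end, and triangles mark the 9 called steps. In EYA4 set 2, 66 of 79 steps lie below 0, whereas TENM4 has bars on both sides of 0 in both sets.

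The lower cover was spread over many steps in each gene rather than held by the called ones. In EYA4, the called step held 6.31% of the summed lower cover in set 1 and 2.68% in set 2, and 11 steps in set 1 and 19 in set 2 were needed to reach 50% of it. The called steps held 3.84% and 3.59% in TENM4, 8.27% and 3.96% in CADPS, 12.1% and 7.02% in GLI3 and 21.7% and 7.24% in RYR2. Those called shares follow partly from the choice of steps. The 5 largest steps held between 19.8% (TENM4) and 35.7% (RYR2) in set 1, and between 15.3% (GLI3) and 20.9% (CADPS) in set 2. Step by step the differences of the sets showed little linear relation. Over covered steps the correlation between the differences of the sets was -0.06 in EYA4 (n = 77 steps), 0.06 in TENM4 (164), 0.05 in RYR2 (98), 0.01 in CADPS (102) and 0.06 in GLI3 (127), given as a description, since steps share libraries and neighbouring steps share peaks.

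Loss and gain of bases within a set were also unequal between the genes. In EYA4 with its flanks, 67983 bp were covered in DMSO 1 and not in AC220 1, against 11408 bp the other way, a ratio of 5.96, and in set 2 the ratio was 16.2. RYR2 had ratios of 6.30 and 8.23, CADPS 2.14 and 5.68, GLI3 1.55 and 4.48, and TENM4 1.72 and 2.33. In TENM4 set 1, 119095 bp were lost and 69434 bp gained. Such ratios were not taken over the genome, where cover differed by -17.2% in set 1 and -15.9% in set 2. Whether those of any gene exceed the genome's is therefore unknown.

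DMSO-only bases, inside a peak of each DMSO list and of no AC220 list, came to 12.5 kb in EYA4, 20.7 kb in TENM4, 9.10 kb in RYR2, 5.18 kb in CADPS and 11.9 kb in GLI3, flanks included. They made up 4.16%, 3.11%, 3.80%, 1.41% and 2.62% of the bases covered in any library, against 1.76% over the genome, a figure the choice of genes also bears on. The reverse, AC220-only bases, came to 0.283, 3.20, 0, 0.916 and 0.726 kb in the same order of genes. No promoter held any such base of either kind. The TENM4, GLI3 and CADPS promoters could hold neither kind, being fully covered or bare in lists of both treatments. DMSO-only bases were thus possible at the EYA4 and RYR2 promoters alone. The DMSO-only bases of EYA4 formed 29 runs of at most 1332 bp, and 23 of these touched an AC220 peak. In CADPS 66.8% of these bases lay apart from any AC220 peak, mainly in the upstream peak of 2978 bp, against 20.5% in RYR2, 21.97% in TENM4, 29.4% in EYA4 and 29.4% in GLI3, and 24.5% over the genome. Bases covered in all 4 libraries made up 24.9% of the bases covered in any library in TENM4, 23.7% in GLI3, 9.79% in EYA4, 5.74% in CADPS and 3.05% in RYR2, against 19.0% over the genome.

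**Figure D4:**
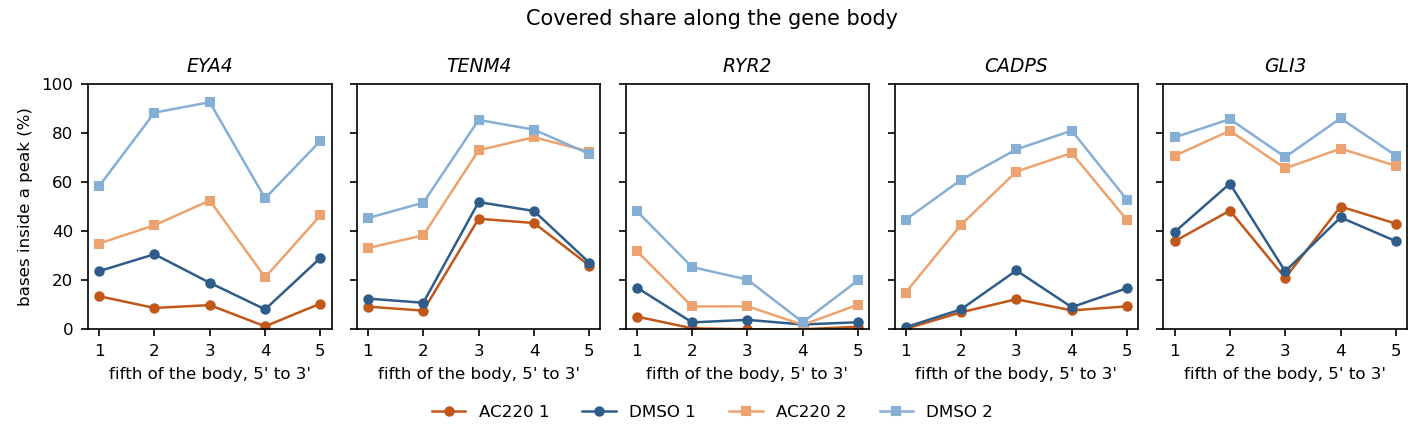
Percentage of bases inside a peak (y axis) in 5 equal parts of each gene body from 5' to 3' (x axis), with 1 line per library. In EYA4, RYR2 and CADPS the AC220 line lies below the DMSO line of its set in all 5 parts, whereas the lines cross in the last part in TENM4 set 2 and in the last 2 parts in GLI3 set 1.

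Along the body in 5 equal parts, EYA4, RYR2 and CADPS were lower with AC220 in both sets in all 5, TENM4 in 4 and GLI3 in 3. In EYA4 the difference in set 2 ranged from -23.4 points in the first part (35.0% in AC220 2, against 58.4% in DMSO 2) to -46.0 in the second (42.5% in AC220 2, against 88.5% in DMSO 2). In TENM4 the difference in set 1 was largest in the third part, at -6.82 points, beside -3.27 in the first and -1.15 in the last. In set 2 the TENM4 difference narrowed toward the 3' end, with -12.3 points in the first part and 0.99 in the last (72.6% in AC220 2, against 71.6% in DMSO 2). In CADPS set 2 it likewise ran from -29.8 points in the first part (15.0% in AC220 2, against 44.8% in DMSO 2) to -8.27 in the last, a trend that set 1 did not show, where the first part had 0.179% in AC220 1 and 0.820% in DMSO 1. In GLI3 the last 2 parts were higher with AC220 in set 1 (50.1% in AC220 1 against 45.7% in DMSO 1, and 43.2% against 36.0%), and lower in set 2. In RYR2 the first part was the most covered in every library, with 5.19% in AC220 1 and 32.0% in AC220 2, against 17.1% in DMSO 1 and 48.3% in DMSO 2.

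In the next 500 kb beyond the flanks, cover was also lower with AC220 in both sets on every side except downstream of GLI3, where set 1 had 0.121% in AC220 1 and none in DMSO 1. Upstream of EYA4, toward RPS12, the cover was 9.28% in AC220 1 and 41.5% in AC220 2, against 22.5% in DMSO 1 and 70.1% in DMSO 2, relative differences of -58.8% and -40.8% beside -57.5% and -45.9% in the gene. Downstream of EYA4, toward TCF21, it was 34.2% in AC220 1 and 64.6% in AC220 2, against 45.8% in DMSO 1 and 76.2% in DMSO 2. The upstream differences in sets 1 and 2 were -30.2% and -42.1% for CADPS, -47.2% and -25.6% for RYR2, -34.7% and -28.0% for TENM4, and -19.6% and -23.8% for GLI3. Downstream of CADPS the cover was 0.778% in AC220 1 and 24.4% in AC220 2, against 2.71% in DMSO 1 and 40.5% in DMSO 2 (-71.3% and -39.8%), beside -38.0% and -24.5% in the gene. The stretches downstream of TENM4, RYR2 and GLI3 had at most 3.13% covered in any library.

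Since the DMSO lists cover more of the genome, each was also trimmed to the length of the AC220 list of its set, keeping its peaks of highest -log10 q. EYA4 remained lower with AC220 in both sets over the gene (9.82% in AC220 1 against 19.8% in DMSO 1, and 40.3% in AC220 2 against 70.4% in DMSO 2), and RYR2 (1.65% against 4.63%, and 13.0% against 18.3%) and CADPS (7.22% against 8.93%, and 47.3% against 51.7%) did too. TENM4 came out slightly higher with AC220 in both sets (26.8% against 24.7%, and 59.4% against 57.9%). GLI3 was higher in set 1 (40.8% against 38.1%) and lower in set 2 (72.2% against 73.8%). Of the 9 called steps, 4 were still called, 1 each in EYA4 and TENM4 and 2 in RYR2. With all lists trimmed to the shortest, 9 steps were called, but none of them was among these 9. None of the 9 was called when only peaks with a q of at most 0.01 were kept. With that stricter list the set 1 difference of EYA4 nearly closed (3.67% in AC220 1 against 4.31% in DMSO 1), while that of set 2 did not (19.4% in AC220 2 against 63.6% in DMSO 2). In RYR2 both sets stayed lower (0.391% in AC220 1 against 1.13% in DMSO 1, and 7.10% in AC220 2 against 12.7% in DMSO 2). With all lists trimmed to the shortest, the EYA4 body had 8.77% in AC220 1 against 18.8% in DMSO 1. In set 2 it then had 4.67% in AC220 2 against 8.62% in DMSO 2. That set 2 difference was -3.95 percentage points, against -34.5 with the full lists.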

How the data were processed

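H3K27me3 was measured in 4 immunoprecipitated libraries, with treatment and number taken from the sample titles. Per the submitters' processing notes, BWA 0.7.10-r789 and MACS2 2.1 were used, without roles or settings; how inputs or Drosophila reads entered is not given in the sources used. The authors deposited 1 list of broad peaks per library, with no header. The columns, read in the order of the broad peak format, are positions, the deposited score (10 times the -log10 q), the authors' fold enrichment ratio over the library's own background, and the authors' p-value and q-value per peak as -log10. The genome build is not named in the labels or lists and was taken as GRCh37: chromosome 1 peaks ended at 249236554 or before, inside its 249250621 bases (circlize 0.4.16, R 4.3.3). Positions count from 1.

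Gene spans in kb were taken as given with the choice of genes, and strands from the RefSeq promoter table or, for GLI3, from general knowledge. Covered shares, counts and medians were computed in Python 3.11.15 (pandas 2.3.3, numpy 2.4.6) and figures drawn with matplotlib 3.10.9. Steps were taken in multiples of 5 kb and assigned by their midpoint. The step functions were tested on simulated lists. Members, spans and lists were chosen with earlier results of these data known, so no test of the treatment was run. All 5 genes, called steps, the step just under the threshold and the widest peaks are named by rule. The stretches of 500 kb, the body parts, base classes and other named peaks were added after the data had been seen. Alternatives were stricter q, trimmed lists, other promoter widths, steps and separations, and leaving out libraries.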

Additional observations from a re-analysis of the deposited data

How the results depend on the processing

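The replicate block over the set numbers gives the same mean differences as the unblocked values (EYA4 gene -23.8 percentage points), since each set holds both treatments. Each alternative below is an AC220 minus DMSO difference in percentage points or a count of steps; where no construction is named, the cause was not tested. Leaving out a library sets a mean over both sets against a single set, so the larger set 2 lists weigh on the sign. Not every sign turned: the EYA4 promoter and the CADPS upstream flank stayed lower with AC220 whichever library was left out.

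Gene differences ranged over the libraries left out from -49.4 to 1.93 in EYA4, -24.3 to 12.5 in TENM4, -16.5 to 1.49 in RYR2, -35.4 to 15.6 in CADPS and -22.2 to 14.8 in GLI3. Body differences ranged from -49.9 to 2.03, -24.4 to 12.6, -16.5 to 1.21, -35.1 to 15.8 and -22.7 to 14.8 in the same order. Promoters ranged from -49.9 to -2.33 in EYA4, -19.6 to 23.2 in RYR2, -31.1 to 1.39 in CADPS and 0 to 8.78 in GLI3, with 0 throughout in TENM4. Upstream flanks ranged from -35.3 to 3.27, -35.8 to 0.09, -35.7 to 12.9, -22.7 to -1.08 and -27.6 to 2.37, and downstream flanks from -49.7 to 3.46, -33.2 to 11.9, -11.8 to 0.298, -34.3 to 23.5 and -2.05 to 0.496, again in that order. Called steps ranged from 1 to 44, 1 to 31, 3 to 36, 1 to 29 and 3 to 35. Steps lower in both sets cannot be counted without a library.

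With each DMSO list trimmed, the difference was 1.74 for the gene and 1.75 for the body of TENM4, and 0.52 and 0.37 for GLI3; with all lists trimmed to the shortest it was 1.27 for both in TENM4. With a promoter of 10 kb either side TENM4 had -2.16. At a q of at most 0.001 the GLI3 promoter had -45.6 and the CADPS upstream flank 0.

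Steps lower in both sets, in the order EYA4, TENM4, RYR2, CADPS and GLI3, numbered 5, 7, 8, 0 and 2 at a q of at most 0.01, 0, 0, 0, 0 and 1 at 0.001, and 11, 8, 8, 6 and 10 with all lists trimmed. With each DMSO list trimmed they numbered 24 in TENM4, 17 in RYR2, 10 in CADPS and 17 in GLI3. Called steps numbered 0, 2, 0, 0 and 0 at 0.01, 0 in each gene at 0.001 and with steps of 10 kb, and 3, 2, 0, 0 and 4 with all lists trimmed. None of the steps called at 0.01 or with all lists trimmed was among the 9 of the full lists. With each DMSO list trimmed CADPS and GLI3 had 0. A gap of 10 points gave 3 in EYA4, 2 in TENM4, 5 in RYR2 and 6 in GLI3, and one of 50 points gave 1 in RYR2 and 0 in GLI3. Peak lists without read counts give no depth, so how depth limits these values is unknown.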
